A study of Mus musculus with 16 samples.

Results

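The p53 target genes described here are 10 genes that the transcription factor p53 is known to switch on: Cdkn1a, Mdm2, Ccng1, Phlda3, Eda2r, Bax, Gdf15, Sesn1, Btg2 and Trp53inp1. They were chosen by name, and each matched 1 of the 24082 Ensembl genes in the deposited table of liver RNA. The table covers 16 livers of young adult female C57Bl6/J mice, 1 library per mouse, in 4 groups of 4 mice. Pair control mice received a pair-fed control liquid diet with vehicle, Pair IMC mice the same diet with IMC, EtOH control mice a chronic ethanol liquid diet with vehicle, and EtOH IMC mice the ethanol diet with IMC. IMC (iodomethylcholine) is a small molecule that inhibits the enzyme with which gut bacteria make trimethylamine from choline, and the study asked how blocking it changes liver gene expression with and without ethanol. No allele or transgene was involved, and the diet intake and body weight of these mice were not analysed here. For the combination of ethanol with IMC, the paper describes an unexpected fall in intake and in weight. It also marks a difference in body weight between pair-fed mice with and without IMC. Whether these differences contributed to the levels in either diet was not tested.

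p53 is held at a low level in unstressed cells because Mdm2, an E3 ubiquitin ligase, marks it for degradation. DNA damage, ribosomal stress and other insults release it, and it then activates genes that halt the cell cycle (Cdkn1a, Ccng1, Btg2), promote cell death (Bax, Eda2r, Phlda3), restrain growth signalling (Sesn1) or act on other tissues (Gdf15). Most of these genes also answer to other regulators, and in liver several of them move with fasting, glucocorticoids or amino acid shortage.

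All levels are normalized counts, which are read counts on genes divided by a factor for the depth of each library, rescaled by a median ratio over all 16 libraries so that the diets share 1 scale. The libraries held from 9632659 to 12601199 reads on genes. Each of the 8 hepatocyte markers was detected in each group, with summed levels of 1118970 to 2088440. Among markers of other tissues, the pancreas genes Prss1, Cpa1, Pnlip, Amy2a5 and Ins2 and the intestine gene Cdx2 were at 0 in each library. Others on these lists were detected, with means over the 16 libraries of 753 for Fabp2, 247 for Lgals4 and 94.2 for Cela1. In whole liver, fewer cells of a type and less RNA per cell cannot be told apart. The paper recorded diet intake by cage, but the sample labels do not say which mice shared a cage. The p-values measure the spread between these mice and treat each mouse as independent. An effect of cage cannot be told apart from that spread or from the differences between groups. The library numbers in the sample titles divide unevenly over the groups. Pair IMC holds libraries 2, 4, 6 and 8, EtOH control 1, 3, 5 and 7, Pair control 10, 12, 14 and 16, and EtOH IMC 9, 11, 13 and 15. Within a group, values are given in the order of these numbers. Low and high numbers cannot be told apart from the IMC effect within a diet, or from the difference of that effect between diets. The same holds for the ethanol effect with and without IMC. Of the comparisons made here only IMC averaged over the diets is balanced over low and high numbers. Pair-fed mice hold the even numbers and ethanol-fed mice the odd ones, so that diet cannot be told apart from this split either.

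p53 binds DNA as a tetramer at a pair of p53 half-sites of 10 letters each. The RefSeq promoter windows on GRCm38.p6, from 250 bases before to 50 bases after each start of transcription, were searched for a pair of half-sites with a gap of 0 to 13 bases and at most 1 of the 20 letters departing. The half-site reads the same on both strands, so that 1 search covered both. Of the 10 genes, 9 have a window (Trp53inp1 has none), and such a pair was found in the windows of Cdkn1a, Ccng1 and Bax. Of all 27025 genes with a window, 335 (1.24%) hold a pair. These 3 stretches are printed because they match, by letters alone, the response element the gene set is named for. Capitals mark the half-sites of each pair found, and each line reads 5' to 3' on the strand of its gene.
Cdkn1a: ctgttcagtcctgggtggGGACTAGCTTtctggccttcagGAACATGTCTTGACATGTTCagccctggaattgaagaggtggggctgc
Ccng1: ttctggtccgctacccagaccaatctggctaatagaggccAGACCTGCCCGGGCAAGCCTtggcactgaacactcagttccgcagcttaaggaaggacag
Bax: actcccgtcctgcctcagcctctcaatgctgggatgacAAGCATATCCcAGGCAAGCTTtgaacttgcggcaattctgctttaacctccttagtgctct
The Cdkn1a line is chr17:29090888-29090975 on the plus strand. It holds 3 half-sites, which make 2 pairs that share the middle half-site. In 1 pair, from 73 to 42 bases before the start with a gap of 12 bases, 0 letters depart, and in the other, from 51 to 32 bases before the start with no gap, 1 letter departs. These distances are from the upstream RefSeq start of Cdkn1a. Its other window, at a start further downstream (chr17:29093519-29093818), holds no pair. The Ccng1 line is chr11:40755422-40755521 on the minus strand, with the pair from 195 to 176 bases before the start. The Bax line is chr7:45467050-45467148 on the minus strand, with 1 base between its half-sites and the pair from 212 to 192 bases before the start. In the Ccng1 pair and in the Bax pair 1 letter departs. Binding of p53 was not measured, and the absence of a match says only that no such letters lie in the window.

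**Figure D1:**
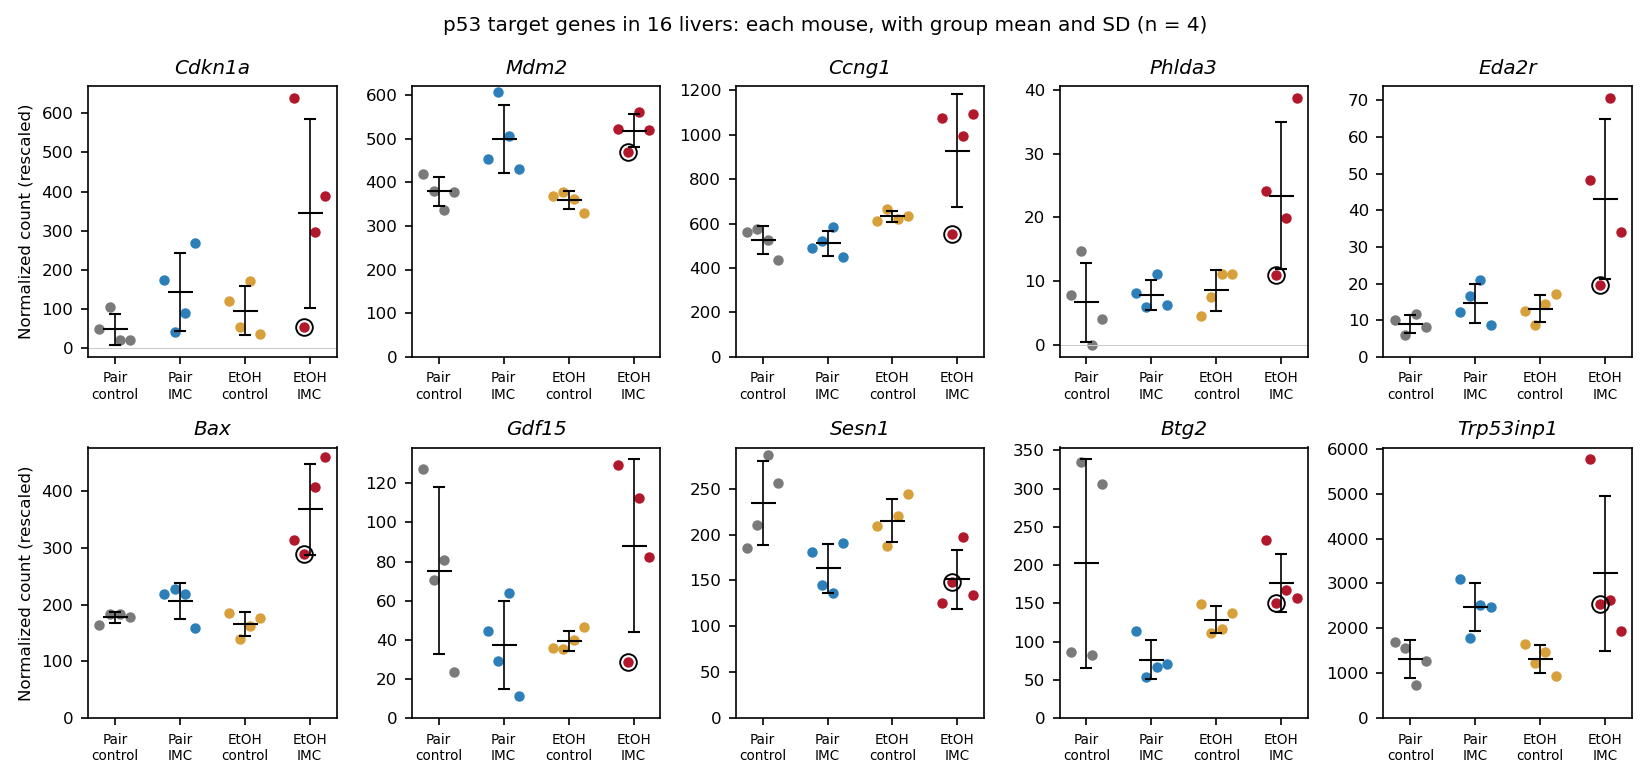
Rescaled normalized counts (vertical axes, starting at or just below 0) of the 10 genes in the 4 groups. Each point is 1 mouse, bars give the mean and SD (n = 4), and the ring marks library 11 of EtOH IMC. Bax was between 289 and 460.4 in EtOH IMC and at most 228 in each other group, and library 11 was the lowest of its group for 8 of the 10 genes.

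In ethanol-fed mice, IMC went with higher levels of Bax, Eda2r, Trp53inp1, Mdm2 and Ccng1 and a lower level of Sesn1. That is 6 of the 10 genes past an adjusted p of 0.05, where 21.5% of the 12537 genes tested passed. The 5 higher calls stand beside a background of 10.4% and the single lower call beside 11.1%. In pair-fed mice limma called Mdm2 higher with IMC and none lower (1 of 10, background 9.48%, of which 4.32% higher), while edgeR and DESeq2 on whole reads also called Btg2 and Sesn1 lower. Averaged over both diets, 6 of 10 passed (background 28.1%). Cdkn1a, Mdm2, Eda2r, Bax and Trp53inp1 rose (background 14.1%) and Sesn1 fell (background 14%). Without IMC, ethanol changed 0 of 10 genes by limma (background 11.9%), with 0 at an unadjusted p under 0.05 and 0 calls by edgeR or DESeq2. In IMC-treated mice ethanol raised 4 of 10: Ccng1, Eda2r, Bax and Btg2 (background 16.4%, of which 7.86% higher). The IMC effect itself differed between the diets for Bax (1 of 10, background 1.11%, of which 0.319% higher). The median log2 fold change of the 10 genes was 1.04 for IMC in ethanol-fed mice and 0.29 in pair-fed mice, 0.97 for ethanol in IMC-treated mice and -0.02 in control mice, while the median over all genes tested lay within 0.01 of 0 in each. The IMC contrast in ethanol-fed mice and the ethanol contrast in IMC-treated mice share the EtOH IMC group.

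**Figure D2:**
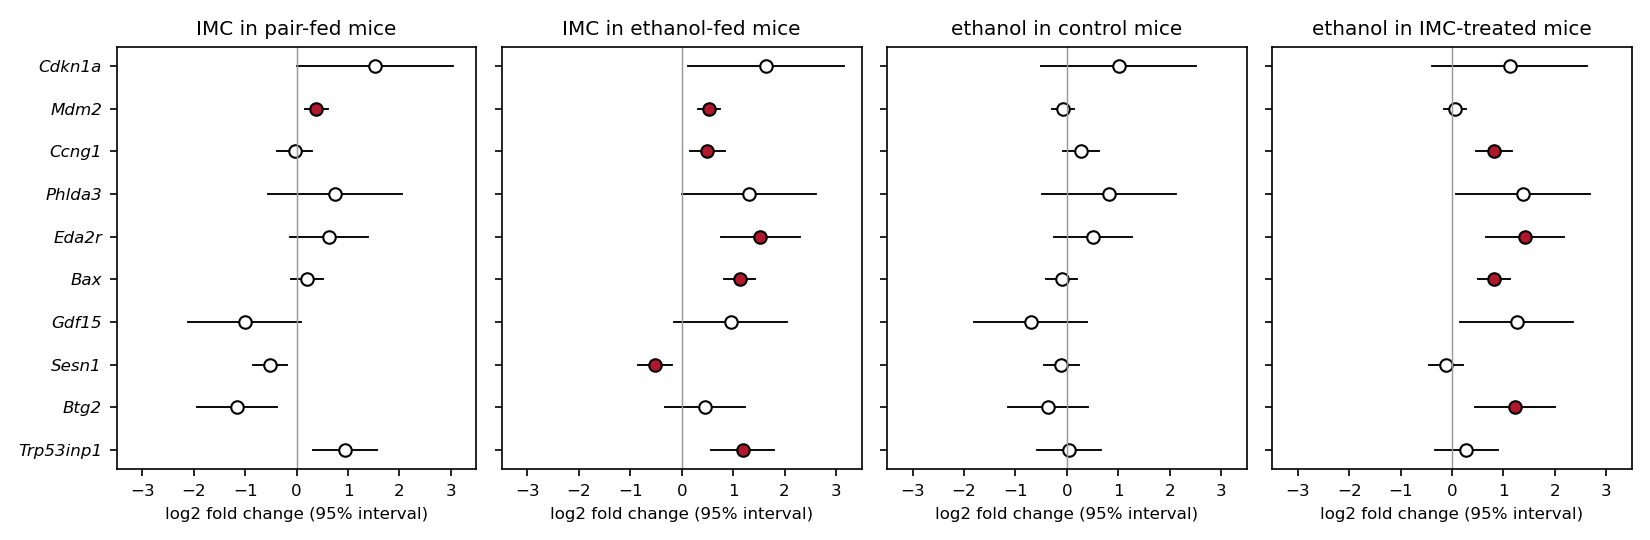
Log2 fold changes (horizontal axes, on log2(value + 1)) of the 10 genes in 4 contrasts with 95% intervals from limma. Filled points have an adjusted p under 0.05. IMC in ethanol-fed mice gives 6 filled points, IMC in pair-fed mice 1, ethanol in IMC-treated mice 4 and ethanol in control mice 0.

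Levels between genes were compared per kilobase of exon. In Pair control mice Trp53inp1 was the most abundant (204 normalized counts per kilobase), followed by Ccng1 (149), Bax (113), Mdm2 (74.6), Btg2 (73.9), Sesn1 (58.8), Gdf15 (40.8), Cdkn1a (13.8), Phlda3 (4.26) and Eda2r (1.52). Ccng1 and Bax did not overlap between mice, nor did Bax and Mdm2. Every other pair of neighbours in this order overlapped. In EtOH IMC mice Cdkn1a, at 96.9 per kilobase, stood between Mdm2 (102) and Btg2 (64.6), and Eda2r remained the lowest at 7.32.

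Mdm2 (chr10:117688875-117710758, GRCm38), the ligase that p53 induces and that in turn degrades p53, had the smallest SE of the 10 genes and rose with IMC in both diets. Pair control mice had 420.2, 381, 337 and 379 normalized counts, and Pair IMC mice 452, 607, 506 and 431. EtOH control mice had 368, 377, 362 and 329, and EtOH IMC mice 523, 469, 562 and 519. In each diet the lowest IMC mouse was above the highest control mouse. The log2 fold change was 0.39 (SE 0.10, adjusted p = 0.0254) in pair-fed and 0.53 (SE 0.10, adjusted p = 0.00191) in ethanol-fed mice, and 0.46 (SE 0.07, adjusted p = 0.000232) averaged over both, or 1.37-fold. The effects differed by 0.14 between diets (95% interval -0.17 to 0.45). The call in pair-fed mice was lost without library 4, 6 or 14 (adjusted p up to 0.0934) and when only the pair-fed libraries were fitted (adjusted p = 0.0782).

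The Trp53 transcript itself was called in no contrast by limma, edgeR or DESeq2, and none of its unadjusted p-values was under 0.05. It averaged 226 ± 34.8 (SD, n = 4) normalized counts in EtOH IMC mice and 203 ± 12 in their vehicle controls. On the pair-fed diet it averaged 204 ± 27.6 with IMC and 233 ± 10.2 with vehicle. These gave log2 fold changes of -0.20 (adjusted p = 0.295) for IMC in pair-fed mice, 0.14 (0.426) in ethanol-fed mice and -0.19 (0.286) for ethanol in control mice. p53 is regulated mainly through its protein, which was not measured. Of 20 tested genes that encode p53, its partners and its regulators, Mdm4 fell and Rpl11 and Rpl5 rose with IMC in ethanol-fed mice. The 2 higher and 1 lower stand beside backgrounds of 10.4% and 11.1% of all genes tested. Whether these genes acted on p53 was not tested. Mdm4 binds p53 and blocks its activity, and its level was 1075 ± 40 in EtOH control and 609.6 ± 177 in EtOH IMC mice (log2 fold change -0.87, SE 0.16, adjusted p = 0.00123). The ribosomal proteins of Rpl11 and Rpl5 can bind and inhibit Mdm2, and the log2 fold changes were 0.41 (SE 0.10, adjusted p = 0.0107) and 0.36 (SE 0.12, adjusted p = 0.0346). The Rpl5 call was lost without any 1 of libraries 1, 3, 5, 7, 11, 13 and 15 (adjusted p up to 0.0981). In pair-fed mice IMC raised 1 of the 20 (background 4.32% higher), the deubiquitinase gene Usp7 (0.27, SE 0.07, adjusted p = 0.0262, up to 0.0962 without library 4, 6, 12 or 16). Of the 20, ethanol in control mice lowered Ppp1r13b, which encodes a cofactor of p53 (-0.34, SE 0.10, adjusted p = 0.0341, up to 0.103 without library 1, 5, 7, 14 or 16). There the background was 11.9% in either direction.

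Cdkn1a (chr17:29090976-29100727) encodes p21, the inhibitor of cyclin-dependent kinases through which p53 arrests the cell cycle. Its log2 fold changes had the largest SE of the 10 genes. In Pair control mice Cdkn1a had 49.0, 105, 21.1 and 21.4 normalized counts, and Pair IMC mice 174, 40.9, 90.2 and 268. EtOH control mice had 121, 53.5, 171 and 36.3, and EtOH IMC mice 638, 53.4, 296 and 389.5. In ethanol-fed mice 3 of the 4 IMC mice exceeded each control mouse while library 11, at 53.4, lay among the controls, so the groups overlapped in each diet. Its log2 fold change was 1.53 (SE 0.72, adjusted p = 0.189) in pair-fed and 1.64 (SE 0.72, adjusted p = 0.112) in ethanol-fed mice. Averaged over both diets it was 1.58 (SE 0.51, adjusted p = 0.0266), or 3.0-fold. Without library 11 the change in ethanol-fed mice was 2.38 (adjusted p = 0.0162). The averaged call was lost without any 1 of libraries 2, 3, 7, 8, 9, 14, 15 and 16 (adjusted p up to 0.0592). On whole reads in ethanol-fed mice edgeR gave an adjusted p of 0.0460 (0.0494 with upper-quartile scaling) and DESeq2 0.0636. A GENCODE antisense gene overlaps Cdkn1a, and whether reads were counted by strand is not given in the sources used here.

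Ccng1 (chr11:40748552-40755311) encodes cyclin G1, which brings a phosphatase to Mdm2. It had 562, 574, 525 and 436 normalized counts in Pair control, 490.1, 519, 584 and 447 in Pair IMC, and 611, 666, 619 and 635 in EtOH control mice. EtOH IMC mice had 1073, 552, 992 and 1093, so that 3 mice lay well above each of the other 13 and library 11 lay below each EtOH control mouse. IMC gave a log2 fold change of 0.50 (SE 0.16, adjusted p = 0.0378) in ethanol-fed mice and -0.04 (SE 0.16, adjusted p = 0.915) in pair-fed mice. Ethanol in IMC-treated mice raised it by 0.82 (SE 0.16, adjusted p = 0.00316), a call that held without each library. The IMC call in ethanol-fed mice was lost without any 1 of libraries 1, 3, 5, 7, 9, 13 and 15 (adjusted p up to 0.113), with no filter on low values (0.0516) and when only the ethanol-fed libraries were fitted (0.0659). Without library 11 it was 0.73 (adjusted p = 0.000188), and the effects of IMC in the 2 diets then differed by 0.77 (adjusted p = 0.0135), against 0.54 (adjusted p = 0.281) with all libraries. In the values as deposited, which carry a shift of 0.19 (log2) between the diets, ethanol raised Ccng1 in control mice as well (0.47, adjusted p = 0.0465, against 0.28 and 0.281 here).

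Btg2 (chr1:134075170-134079120) encodes an antiproliferative protein that recruits an mRNA deadenylase, and its transcript is also induced within minutes of many stimuli. Pair control mice fell into 2 high values, 335 and 307, and 2 low ones, 86.9 and 82.1. Pair IMC mice had 114, 54.6, 67.2 and 70.5, EtOH control mice 149, 111, 117 and 137, and EtOH IMC mice 233, 151, 167 and 157. EtOH IMC mice thus lay above each mouse of both EtOH control and Pair IMC. Ethanol raised Btg2 in IMC-treated mice by 1.23 (SE 0.37, adjusted p = 0.0303), a call lost without any 1 of libraries 4, 6, 8, 9, 13 and 15 (adjusted p up to 0.0843). IMC gave a log2 fold change of 0.45 (SE 0.37, adjusted p = 0.414) in ethanol-fed mice and -1.15 (SE 0.37, adjusted p = 0.0581) in pair-fed mice, and the difference of 1.60 between these had an adjusted p of 0.148. On whole reads edgeR and DESeq2 called Btg2 lower in pair-fed mice (adjusted p = 0.0261 and 0.0147).

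Beside Cdkn1a, Ccng1 and Btg2, 3 further lists of growth genes were counted. Their counts stand beside backgrounds of 21.5% for IMC in ethanol-fed mice, 9.48% in pair-fed mice and 11.9% for ethanol in control mice. Of 25 tested genes of the cell cycle and DNA replication, IMC raised 1 in pair-fed mice, Rrm2 (0.66, SE 0.14, adjusted p = 0.00683), and 1 in ethanol-fed mice, Mcm7 (0.34, SE 0.12, adjusted p = 0.0483, lost without any 1 of libraries 1, 3, 5, 7, 8, 11, 13, 14, 15 and 16, with an adjusted p up to 0.123). The list's median was -0.20 in pair-fed and -0.29 in ethanol-fed mice, and 6 of its 31 genes, such as Ccnb1 and Plk1, were too low to test. For IMC averaged over both diets, limma called 0 of the 25 higher and 4 lower, beside backgrounds of 14.1% and 14%. In control mice ethanol raised Rrm2 (0.65, adjusted p = 0.00641) and Ccnd2 (0.52, adjusted p = 0.0227, up to 0.0785 without library 1, 5 or 14) and lowered Cdk2 (-0.71, adjusted p = 0.00183). A list of other inhibitors of cyclin-dependent kinases also held Ccng2, Btg1, Btg3, Tob1 and Tob2. Of its 9 tested genes, 0 passed for IMC in ethanol-fed mice by limma. There 0 had an unadjusted p under 0.05, and edgeR and DESeq2 made 0 calls. Cdkn2c was lower with IMC in pair-fed mice (-0.46, adjusted p = 0.0491, up to 0.137 without any 1 of libraries 1, 2, 3, 4, 5, 6, 7, 10, 12, 13, 14 and 15) and with ethanol in control mice (-0.58, adjusted p = 0.0146). Of 13 immediate early genes, IMC in ethanol-fed mice raised 3: Myc (1.42, SE 0.27, adjusted p = 0.00154), Jun (1.29, SE 0.30, adjusted p = 0.00531) and Ier3 (0.84, SE 0.28, adjusted p = 0.0431, up to 0.134 without any 1 of libraries 1, 3, 5, 6, 11, 13, 14 and 15). In pair-fed mice IMC lowered Klf6 (-0.66, adjusted p = 0.0098) and Junb (-1.85, adjusted p = 0.0148). In control mice ethanol lowered Junb (-1.93, adjusted p = 0.00938) and Jun (-0.98, adjusted p = 0.0391, up to 0.107 without any 1 of libraries 1, 3, 5, 7, 10, 12 and 16). Junb was high in Pair control mice, where it ranged from 189 to 948.

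Bax (chr7:45461697-45466898) encodes the protein that opens the outer mitochondrial membrane in apoptosis, and it showed the clearest change of the 10 genes. In Pair control mice Bax had 164, 184, 184 and 178 normalized counts, Pair IMC mice 219.6, 228, 219 and 159, and EtOH control mice 186, 139, 163 and 177. EtOH IMC mice had 314, 289, 407 and 460.4, and the lowest of them exceeded each of the other 12 mice. For IMC, Bax had a log2 fold change of 1.13 (SE 0.15, adjusted p = 7.65e-05) in ethanol-fed mice, or 2.18-fold, and 0.20 (SE 0.15, adjusted p = 0.418) in pair-fed mice. Ethanol in IMC-treated mice raised it by 0.82 (SE 0.15, adjusted p = 0.00139). These calls held without each library. The difference of the IMC effects between the diets, 0.92 (SE 0.21, adjusted p = 0.0414), was less secure: it was lost without any 1 of libraries 1, 2, 3, 5, 6, 7, 8, 12, 13, 14, 15 and 16 (adjusted p up to 0.0868), with a difference of 0.80 to 0.98, and with no filter on low values (adjusted p = 0.0592). Bax overlaps another GENCODE gene on its strand, to which reads could also have been assigned.

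Of 13 other tested members of the Bcl-2 family, IMC in ethanol-fed mice raised Bad, which promotes apoptosis (0.62, SE 0.17, adjusted p = 0.013), and lowered Bcl2a1b, which opposes it (-1.10, SE 0.35, adjusted p = 0.0336, up to 0.0918 without library 1, 3, 7, 9, 11 or 13). That is 1 higher and 1 lower of 13, beside backgrounds of 10.4% and 11.1%. In pair-fed mice 1 rose and 3 fell. Over all genes tested 9.48% passed there, and 11.9% for ethanol in control mice. The 1 that rose, named after its value was seen, was Bcl2l13, a relative of Bcl-2 in the mitochondrial membrane (0.35, SE 0.10, adjusted p = 0.0458, up to 0.138 without any 1 of libraries 1, 2, 3, 4, 6, 12, 13, 14 and 16). The 3 that fell all encode proteins that promote apoptosis: Bmf (-1.48, SE 0.29, adjusted p = 0.00488), Bid (-0.41, SE 0.10, adjusted p = 0.0171, 0.0573 without library 4) and Bok (-0.73, SE 0.18, adjusted p = 0.0183, up to 0.0667 without library 4 or 6). In control mice ethanol lowered Mcl1, which opposes apoptosis (-0.41, adjusted p = 0.0116) and Bmf (-0.95, adjusted p = 0.0394, up to 0.129 without library 3, 5, 7, 14 or 16).

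Eda2r (chrX:97333840-97377216) encodes a receptor of the tumour necrosis factor family for ectodysplasin A2. Per kilobase it had the lowest level of the 10 genes, and of those called for IMC in ethanol-fed mice it had the largest rise. Pair control mice had 10.03, 5.87, 11.7 and 8.15 normalized counts, Pair IMC mice 12.2, 16.6, 21.1 and 8.82, and EtOH control mice 12.6, 8.55, 14.4 and 17.1. EtOH IMC mice had 48.2, 19.5, 70.7 and 34.0, and the lowest of them, library 11, was above each EtOH control mouse but within the range of Pair IMC. The log2 fold change was 1.53 (SE 0.36, adjusted p = 0.00632) for IMC in ethanol-fed mice and 0.63 (SE 0.36, adjusted p = 0.294) in pair-fed mice, and 1.08 (SE 0.26, adjusted p = 0.00457) averaged over both. The effects differed by 0.90 between diets (95% interval -0.17 to 1.98). Ethanol in IMC-treated mice raised it by 1.41 (SE 0.36, adjusted p = 0.0135, and 0.0533 without library 13). Of the genes listed around Gdf15 and ectodysplasin signalling, Gfral, Ret, Edar and Edaradd were too low to test in liver. Eda, the gene of the ligand, was at 25.2 ± 1.87 in EtOH control and 18.4 ± 6.16 in EtOH IMC mice (-0.50, SE 0.25, adjusted p = 0.161), with -0.09 (adjusted p = 0.859) in pair-fed mice. Traf6, an adaptor of the receptor, was higher with IMC in both diets (0.35, adjusted p = 0.0215, in pair-fed mice and 0.31, adjusted p = 0.0229, in ethanol-fed mice). The Traf6 call was lost without library 4, 6 or 12 in pair-fed mice (adjusted p up to 0.0801) and without library 1 or 13 in ethanol-fed mice (up to 0.0719).

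Phlda3 (chr1:135766119-135769136) encodes a repressor of Akt signalling and was near the floor of detection outside EtOH IMC. It had 7.80, 14.7, 0 and 4.07 normalized counts in Pair control, the 0 standing for no reads, which allows up to 3, and 8.13, 5.85, 11 and 6.30 in Pair IMC mice. EtOH control mice had 4.49, 7.48, 11 and 11.1, and EtOH IMC mice 24.1, 11, 19.9 and 38.8. Again 3 mice stood above each other mouse and library 11 did not. The log2 fold change for IMC in ethanol-fed mice was 1.30 (SE 0.62, adjusted p = 0.144) on log2(value + 1), a scale that understates changes of so low a gene. On whole reads it was 1.45 in edgeR (adjusted p = 0.0457) and 1.45 in DESeq2 (adjusted p = 0.0284), while edgeR with upper-quartile scaling did not call it.

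Gdf15 (chr8:70629393-70632456) encodes a hormone of the transforming growth factor family that stressed tissues release and that lowers food intake through the receptor Gfral in the hindbrain. It is induced by p53 and also by the integrated stress response. In Pair control it had 127, 70.5, 81.0 and 23.4 normalized counts, and Pair IMC mice 44.7, 29.2, 64.2 and 11.3. EtOH control mice were close together at 35.9, 35.3, 39.9 and 46.4, while EtOH IMC mice had 129, 28.8, 113 and 82.3. Of the EtOH IMC mice, 3 were above each EtOH control mouse and library 11 was below each. With IMC the log2 fold change was 0.96 (SE 0.52, adjusted p = 0.204) in ethanol-fed and -1.01 (SE 0.52, adjusted p = 0.235) in pair-fed mice. By limma Gdf15 passed in none of the 6 contrasts, with an unadjusted p under 0.05 in 2 of them (the difference between diets, 1.97, and ethanol in IMC-treated mice, 1.26) and 0 calls by edgeR or DESeq2. Without library 11 the change in ethanol-fed mice was 1.42 (adjusted p = 0.0581). Of 14 tested genes of the integrated stress response, IMC in ethanol-fed mice raised 3: Asns, which makes asparagine (8.21 ± 4.27 in EtOH control and 26.6 ± 4.85 in EtOH IMC, log2 fold change 1.72, SE 0.39, adjusted p = 0.00531), Ppp1r15a, a phosphatase subunit that ends the response (0.89, SE 0.21, adjusted p = 0.00567), and the hormone gene Fgf21 (1.70, SE 0.46, adjusted p = 0.0143, and 0.052 without library 13). Of all genes tested, 10.4% were called higher there, 4.32% higher for IMC in pair-fed mice and 11.9% in either direction for ethanol in control mice. In pair-fed mice IMC raised Fgf21 (1.85, SE 0.46, adjusted p = 0.0185, up to 0.0712 without library 4, 6 or 12), and ethanol in control mice lowered it (-1.51, adjusted p = 0.0397, up to 0.124 without library 3, 5, 7, 10, 14 or 16).

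Sesn1 (chr10:41809935-41908424) encodes sestrin 1, which restrains mTORC1, the kinase complex that senses amino acids. It was the only 1 of the 10 genes that IMC lowered past the threshold in any contrast by limma. Pair control mice had 185, 210.4, 286 and 256 normalized counts, and Pair IMC mice 181, 145, 136 and 190.2. EtOH control mice had 209, 187, 220.5 and 244, and EtOH IMC mice 126, 148, 197 and 134. In each diet 3 of the 4 IMC mice lay below each control mouse, and the groups overlapped through library 8 in pair-fed mice (190.2 against a lowest control of 185) and library 13 in ethanol-fed mice (197 against 187). The log2 fold change was nearly the same in both diets: -0.51 (SE 0.16, adjusted p = 0.0504, and 0.0453 in edgeR and 0.0244 in DESeq2) in pair-fed mice, -0.52 (SE 0.16, adjusted p = 0.0273) in ethanol-fed mice and -0.52 (SE 0.11, adjusted p = 0.00263) averaged. The averaged call held without each library. The call in ethanol-fed mice was lost without library 5, 7, 9, 11 or 15 (adjusted p up to 0.0813). Of 14 genes of the sestrin and mTORC1 arm, IMC in ethanol-fed mice lowered Sesn3 (-0.73, SE 0.15, adjusted p = 0.0023) and raised Wdr24, a subunit of the complex that sestrins bind (0.35, SE 0.09, adjusted p = 0.0113). Among all genes tested 11.1% were called lower and 10.4% higher there. In either direction 9.48% were called for IMC in pair-fed mice and 11.9% for ethanol in control mice. In pair-fed mice IMC raised Mlst8, an mTOR subunit (0.54, adjusted p = 0.0338, up to 0.108 without library 4, 6, 12 or 14), and lowered Eif4ebp1, the repressor of translation that mTORC1 inactivates (-0.40, adjusted p = 0.0362, up to 0.118 without library 4, 6, 8, 10 or 12). In control mice ethanol raised Castor2 (1.01, adjusted p = 0.00395) and Mlst8 (0.55, adjusted p = 0.0273, up to 0.0957 without library 1, 5 or 12). It lowered Eif4ebp1 (-0.44, adjusted p = 0.0211, up to 0.0683 without library 1, 5 or 12) and, named after its value was seen, the Rag GTPase gene Rragc (-0.27, adjusted p = 0.042, up to 0.122 without any 1 of libraries 1, 2, 3, 5, 6, 10, 13, 14 and 16).

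Trp53inp1 (chr4:11156431-11174379) encodes a stress-induced protein of the nucleus and of autophagy. It was the most abundant of the 10 genes and rose with IMC. Pair control mice had 1696, 1571, 739 and 1275 normalized counts, Pair IMC mice 3098, 1796, 2522 and 2474, and EtOH control mice 1649.6, 1232, 1470.5 and 940.1. EtOH IMC mice had 5774, 2541, 2629.9 and 1947. In each diet the IMC mice all lay above the control mice. The log2 fold change was 0.95 (SE 0.29, adjusted p = 0.0502) in pair-fed and 1.18 (SE 0.29, adjusted p = 0.00851) in ethanol-fed mice, and 1.07 (SE 0.21, adjusted p = 0.00112) averaged over both, or 2.09-fold. The effects differed by 0.24 (95% interval -0.64 to 1.11), and ethanol gave 0.04 in control and 0.28 in IMC-treated mice. The call in ethanol-fed mice held without each library, library 9 with its 5774 included. Trp53inp1 also responds to fasting and glucocorticoids in liver. Of 16 tested genes of that response, limma called 3 higher and 1 lower for IMC in ethanol-fed mice, beside backgrounds of 10.4% and 11.1%. In either direction 9.48% of all genes passed for IMC in pair-fed mice and 11.9% for ethanol in control mice. The 3 higher were Fkbp5 (0.996, SE 0.25, adjusted p = 0.00999), Sgk1 (0.84, SE 0.23, adjusted p = 0.0163, up to 0.0505 without library 3 or 13) and Per1 (0.87, SE 0.26, adjusted p = 0.0254, up to 0.0805 without library 1, 7, 9, 11 or 13). In pair-fed mice G6pc rose (1.46, SE 0.38, adjusted p = 0.0222, up to 0.0758 without library 4 or 14). In control mice ethanol lowered 3: Cpt1a (-0.54, adjusted p = 0.00853), Irs2 (-0.96, adjusted p = 0.0323, up to 0.105 without library 5, 7, 10, 14 or 16) and Fkbp5 (-0.83, adjusted p = 0.042, up to 0.132 without any 1 of libraries 1, 5, 6, 12, 13, 14 and 16).

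**Figure D3:**
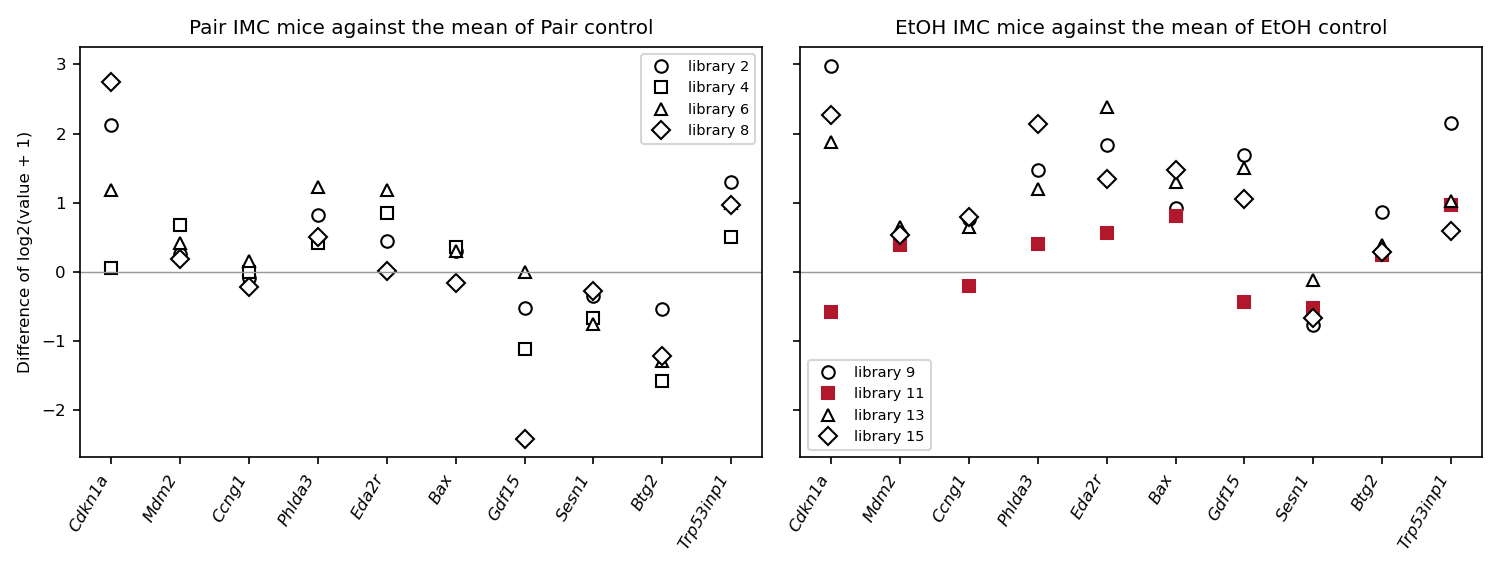
Difference of log2(value + 1) (vertical axes) between each IMC mouse and the mean of the control mice of its diet for the 10 genes, pair-fed on the left and ethanol-fed on the right. Each symbol is 1 library, and the filled red squares are library 11. For Cdkn1a library 11 sits at -0.57 and the other 3 EtOH IMC mice between 1.88 and 2.98.

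Across the 10 genes the EtOH IMC mice did not rise evenly. Library 11 was the lowest of its group for Cdkn1a, Mdm2, Ccng1, Phlda3, Eda2r, Bax, Gdf15 and Btg2 and the highest for none, whereas the other 3 mice were each lowest for at most 1 gene. Its differences from the EtOH control mean were below 0 for Cdkn1a, Ccng1, Gdf15 and Sesn1 and above 0 for the other 6. It was also the deepest library of the series, with 12601199 reads on genes. Its summed intestine markers were 1443, against 335 to 536 in the other 3 mice of its group and 1108 to 1247 in EtOH control. That sum rests almost wholly on Fabp2 and Lgals4. Its endothelial markers summed to 3092, against 4056 to 4107 in the other 3, and its Kupffer cell markers to 2473, against 3016 to 3766. The part of these values in the result was not tested. Without library 11, IMC in ethanol-fed mice again called 6 of the 10 genes, with Cdkn1a gained and Sesn1 lost (-0.52, adjusted p = 0.0527), and Bax (1.03, adjusted p = 0.0188) and Ccng1 differed between diets. No other library was lowest or highest of its group for more than 5 of the 10 genes.

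Groups that did not overlap were counted next. In ethanol-fed mice 5 of the 10 genes were higher in each IMC mouse than in each control mouse (Mdm2, Eda2r, Bax, Btg2 and Trp53inp1), where 12.3% of all genes tested were. In pair-fed mice 2 were (Mdm2 and Trp53inp1, background 7.38%). Ccng1 was higher in each EtOH control mouse than in each Pair control mouse (1 of 10, background 9.92%), and Bax and Btg2 were higher in each EtOH IMC mouse than in each Pair IMC mouse (2 of 10, background 9.35%). None of the 10 genes separated the groups downward in these 4 comparisons, where 12.9% of all genes did for IMC in ethanol-fed and 6.94% in pair-fed mice, and 9.07% for ethanol in control and 9.83% in IMC-treated mice.

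**Figure D4:**
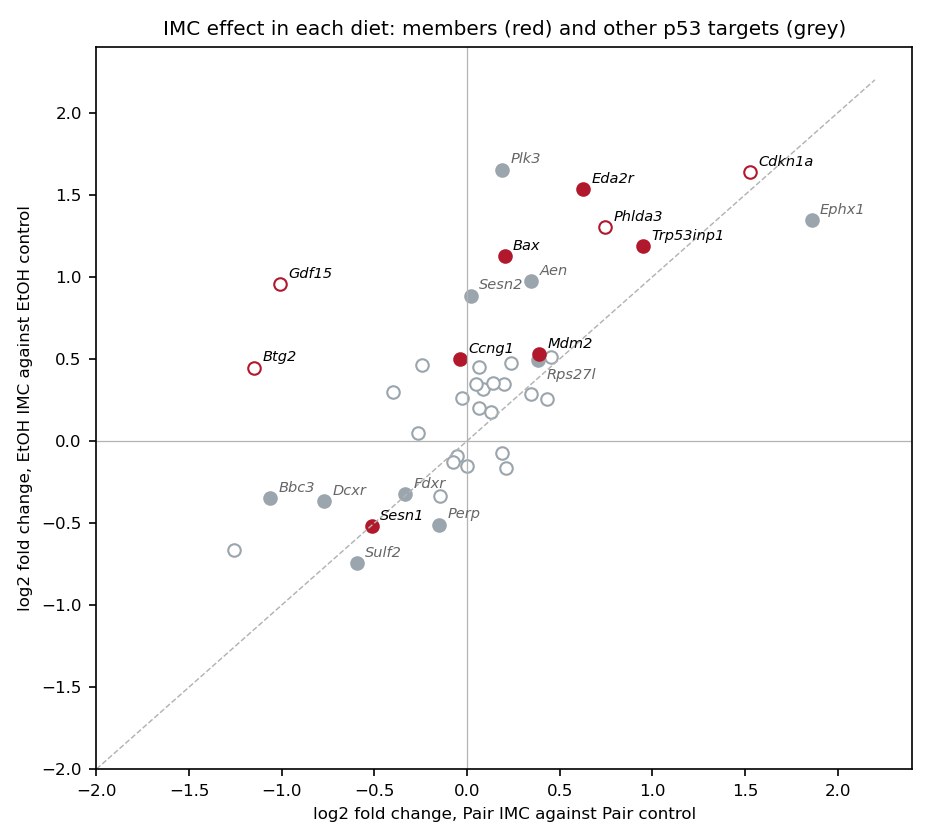
Log2 fold change for IMC in pair-fed mice (horizontal axis) and in ethanol-fed mice (vertical axis) for the 10 genes (red) and 32 other p53 targets (grey). Filled points passed an adjusted p of 0.05 in at least 1 diet, the dashed line marks equal effects, and the 2 axes share no mouse. Of the 10 genes, 9 are above 0 on the vertical axis and 6 on the horizontal axis, and Ccng1, Gdf15 and Btg2 have opposite signs in the 2 diets.

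A list of 40 other p53 targets was read beside the 10 genes, and 32 of these could be tested. IMC in ethanol-fed mice raised 5 and lowered 3, and in pair-fed mice raised 2 and lowered 4, with list medians of 0.26 and 0.05. The 8 of 32 called in ethanol-fed mice stand beside the 21.5% of all genes called there, and the 6 of 32 in pair-fed mice beside 9.48%. For ethanol in control mice the background was 11.9%. The median of the 10 genes was higher in both diets, at 1.04 and 0.29. Ephx1, an epoxide hydrolase that also answers to xenobiotic receptors, rose with IMC in both diets (1.86, SE 0.22, adjusted p = 0.00013, and 1.34, SE 0.22, adjusted p = 0.000521) and with ethanol in control mice (1.59, SE 0.22, adjusted p = 0.000523). Sesn2, the sestrin most tied to stress, rose with IMC in ethanol-fed mice from 126 ± 18.7 to 236 ± 50.5 (0.89, SE 0.16, adjusted p = 0.000871), where its relatives Sesn1 and Sesn3 fell. The 3 further genes that rose there, named after their values were seen, were the nuclease gene Aen (0.97), the kinase gene Plk3 (1.65) and the ribosomal protein gene Rps27l (0.49). Perp, a membrane protein of cell junctions, fell with IMC in ethanol-fed mice from 1492 ± 102 to 1047 ± 56.2 (-0.51, SE 0.07, adjusted p = 0.000115). Sulf2 (-0.75) and Fdxr (-0.32, adjusted p = 0.0322, up to 0.106 without any 1 of libraries 3, 7, 9, 11, 13 and 15), likewise named after their values were seen, also fell. In pair-fed mice Bbc3, which encodes the p53-induced killer PUMA, fell from 93.6 ± 21.9 to 43.7 ± 6.57 (-1.06, SE 0.20, adjusted p = 0.00372), and Dcxr fell (-0.77, SE 0.15, adjusted p = 0.00407). The other 3 calls in pair-fed mice, also named after their values were seen, were a higher Rps27l (0.38, adjusted p = 0.0229, up to 0.0672 without library 4, 6, 10 or 12) and lower Sulf2 (-0.59, adjusted p = 0.0362, up to 0.116 without library 4, 6, 10, 12 or 14) and Fdxr (-0.34, adjusted p = 0.0474, up to 0.139 without any 1 of the libraries other than 7 and 12). In control mice ethanol raised 3, Ephx1, Sulf2 (0.78, SE 0.17, adjusted p = 0.00781) and Perp (0.25, SE 0.07, adjusted p = 0.0305, up to 0.0996 without library 1, 7, 12, 14 or 16), and lowered 1, the phosphatase gene Ppm1d (-0.59, adjusted p = 0.0442, named after its value was seen, up to 0.136 without any 1 of libraries 1, 2, 3, 5, 6, 7, 9, 10, 13, 14, 15 and 16). The IMC effect differed between the diets for 0 of the 32 by limma (6 at an unadjusted p under 0.05, 0 calls by edgeR and 2 by DESeq2), with Sesn2 (difference 0.87, adjusted p = 0.0699) and Perp (-0.36, adjusted p = 0.0921) the nearest. Of this list, 33 genes have a promoter window and 3 hold a pair of half-sites (Gtse1, Polk and Rps27l).

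**Figure D5:**
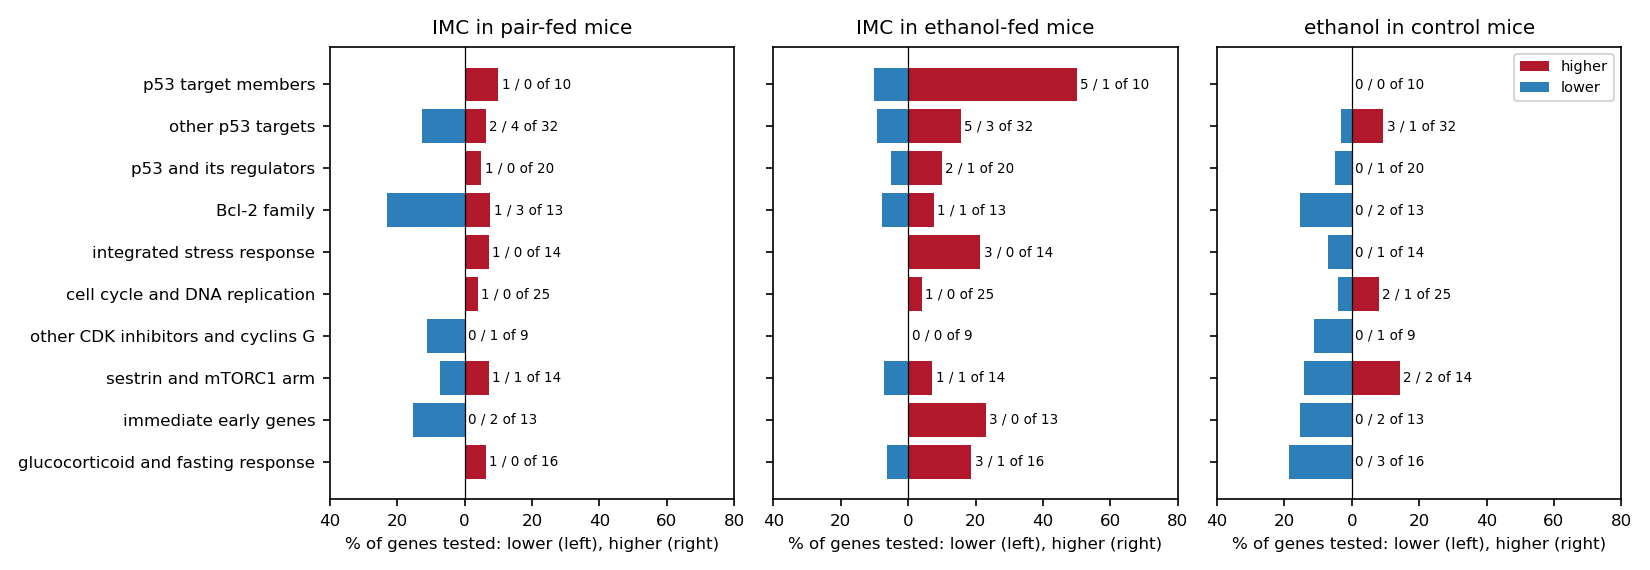
Share of the tested genes of 10 lists that passed an adjusted p of 0.05, higher to the right (red) and lower to the left (blue), in 3 contrasts. The labels give the counts higher, lower and tested. The 10 p53 target genes show 5 higher and 1 lower with IMC in ethanol-fed mice, and 0 in either direction with ethanol in control mice.

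Some markers of other cells moved along the same contrasts. The 8 stellate cell markers summed to 4385 to 5281 in EtOH control and to 2795 to 3808 in EtOH IMC mice, without overlap, and 3 of the 8 were called lower (background 11.1%). Of the 8 Kupffer cell and 8 endothelial markers, limma, edgeR and DESeq2 called 0 for IMC in either diet. By limma 21.5% of all genes passed in ethanol-fed and 9.48% in pair-fed mice. At an unadjusted p under 0.05 stood 0 Kupffer cell and 1 endothelial marker in pair-fed mice and 1 of each list in ethanol-fed mice. In pair-fed mice the T, B and neutrophil markers summed to 67.5 to 112 without and 42.1 to 63.3 with IMC, and the pancreas list to 127 to 157 and 77.9 to 99.6. Both sums rest on few reads, and 5 of the 8 pancreas markers were at 0. Also without overlap in pair-fed mice, the bile duct markers summed to 931 to 1428 without and 825 to 911 with IMC, and the intestine markers to 1270 to 1412 and 734 to 937. The intestine sum rests almost wholly on Fabp2 and Lgals4. Among IMC-treated mice the hepatocyte markers summed to 1895690 to 2058600 in Pair IMC and 1118970 to 1505280 in EtOH IMC, with 1 of the 8 called lower (background 16.4% in either direction). Between Pair control and EtOH control the stellate cell markers (3057 to 4275 in Pair control) were higher with ethanol, and the T, B and neutrophil (36.3 to 59.2 in EtOH control), pancreas (93.3 to 126) and intestine (1108 to 1247) markers lower, each without overlap. The part of these shifts in the levels of the p53 target genes was not tested.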

How the data were processed

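Liver RNA of 16 mice was sequenced. Per the methods and the submitters' processing notes, libraries were made with a directional kit, trimmed with Trim Galore, checked with FastQC, aligned to mm10 with STAR and normalized in edgeR; the counting tool is not given in the sources used here, and single-end reads are named where the labels name paired-end reads. The deposited signal values are the authors' gene counts divided by a size factor: all values lay within 0.01 of whole multiples of 1 read, though in library 15 whole reads are told from normalized values least securely. The table held 27212 rows for 24082 Ensembl IDs (430 with several symbols and identical values), each used once.

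Values were rescaled by a median ratio over all 16 libraries (factors 0.9335 to 1.0717), which removes a shift of 0.19 (log2) between diets. Genes were kept where 4 or more libraries reached a value of 10, which left 12537 with all 10 members among them, and were tested with limma 3.58.1 (R 4.3.3) on log2(value + 1), with a mean per group, 1 spread over the 16 libraries, a mean-variance trend, two-sided tests in 6 contrasts and Benjamini-Hochberg adjustment (threshold 0.05). SDs are over 4 mice. Group labels come from the sample titles. Positions and exon lengths are from GENCODE vM21 (GRCm38) and promoters from RefSeq (GRCm38.p6).

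The members, the gene lists and the tests were chosen with earlier results of these data known. Members are named in each contrast; of each other list, the 3 called genes with the smallest p-value in 3 contrasts are named, and others only as said. The result of 1 listed gene is not reported here. Alternatives were the deposited values, pseudocounts of 0.1 and 5, no filter, the whole reads in edgeR 4.0.16 (TMM, upper quartile) or DESeq2 1.42.0, the libraries compared alone, and each library left out. Both count tools without library 15 were chosen after seeing the data. The steps were tested on simulated data. The intervals come from limma and measure the spread between mice. The floor of 3 reads covers counting error only, as reads carry no molecular identifiers.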

Additional observations from a re-analysis of the deposited data

Results flagged for a closer look

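Bax in Pair IMC mice was marked because 1 mouse stood apart from the other 3. Library 8 had 159 normalized counts, against 219, 219.6 and 228, a gap of 0.864 of the range, which is above the 95% critical value of Dixon's ratio for 4 samples. Of 40 groups examined in this way (10 genes in 4 groups) 1 was marked, and chance gives about 2. Library 8 was also the lowest of its group for Mdm2, Ccng1, Eda2r and Gdf15. Without it the IMC effect on Bax in pair-fed mice was 0.32 in place of 0.20 on the log2 scale, and the difference between diets was 0.80.

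The IMC effect on Bax also differed between the diets, by 0.92 (log2, limma, adjusted p = 0.0414), with 4 of 4 EtOH IMC mice above each EtOH control mouse and 3 of 4 Pair IMC mice above each Pair control mouse. Low and high library numbers divide in the same way as this difference, so that the 2 cannot be told apart.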

How the results depend on the processing

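Of 18 results of single members past the threshold, 461 repeats under the alternatives gave 409 on the same side of the threshold, 52 that lost it and 0 with another sign. For a contrast between 2 groups, leaving out a library of the other groups cannot move the fold change, only its p-value. The sign of such repeats was therefore fixed. The count of members called was 1 for IMC in pair-fed mice and became 2 with a pseudocount of 5 (Trp53inp1 added), 3 with edgeR (TMM or upper quartile) or DESeq2 on whole reads and with edgeR without library 15, and 4 with DESeq2 without library 15. Leaving out 1 library gave 0 to 4 there, 4 to 7 for IMC in ethanol-fed mice, 5 to 7 averaged over both diets, 0 to 2 for the difference between diets, 2 to 5 for ethanol in IMC-treated mice and 0 to 0 in control mice. The difference between diets gave 0 calls with no filter and with edgeR without library 15. Ethanol in control mice gave 1 call in the values as deposited. In these values 93.4% of all calls for ethanol in control mice were higher, against 53.4% after rescaling, and 87.8% against 47.8% in IMC-treated mice. Over all genes 3000 and 3624 were then called, against 1488 and 2060. Upper-quartile scaling made 35.5% of calls for IMC in pair-fed mice higher, against 45.5%. Fitting only the pair-fed libraries called 691 genes in place of 1189. The difference between diets called 139 genes by limma, 338 by DESeq2 (261 without library 15), 72 by edgeR without library 15 and 80 with no filter. Leaving out 1 library gave 537 to 1443 calls for IMC in pair-fed mice, 54 to 164 for the difference, 803 to 1595 for ethanol in control mice and 1368 to 2213 in IMC-treated mice. The causes were not tested. No paired analysis was possible because no 2 groups share a library number. Depth limits Phlda3 and Eda2r most.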
